A study of Homo sapiens with 8 samples.

Results

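A set of 10 genes of the epithelial-mesenchymal transition (EMT) was followed by symbol through 8 RNA sequencing libraries of breast cancer cells: 7 transcription factors (SNAI1, SNAI2, TWIST1, TWIST2, ZEB1, ZEB2 and PRRX1), 2 mesenchymal markers (VIM and FN1) and the epithelial marker CDH1. These 10 genes were taken from the 61552 in the deposited tables. The cells were MDA-MB-231, an established line of triple-negative breast cancer, or MDA231-LM2, called LM2 here, which was derived from MDA-MB-231 by selection for metastasis to lung. Each line carried a control hairpin (genotype labelled WT) or a short hairpin RNA against TAF7 (genotype labelled TAF7 knockdown), and TAF7 encodes a subunit of the general transcription factor TFIID. There were 2 libraries (replicates 2 and 3) in each of the 4 groups, and a single TAF7 hairpin (number 3 in the titles) was used, so an effect of TAF7 loss and an effect of that hairpin cannot be told apart. All cells grew in DMEM with fetal bovine serum, and libraries were made after mRNA enrichment. Since nothing in the labels says whether replicates were separate cultures, the spread behind each p-value is that between these libraries and may be technical. The stated question was which genes TAF7 regulates.

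In EMT, epithelial cells lose the junctions that hold them to their neighbours and take on the shape and motility of mesenchymal cells. SNAI, ZEB and TWIST proteins repress epithelial genes such as CDH1, which encodes E-cadherin. The SNAI and ZEB zinc finger proteins bind the E-box CACCTG, and VIM (an intermediate filament protein) and FN1 (fibronectin, a matrix protein) rise as cells become mesenchymal. ZEB1 and ZEB2 are also held down by microRNAs of the miR-200 family, whose genes the ZEB proteins repress in turn. MDA-MB-231 is widely used as a mesenchymal-like line.

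The sequences of this loop are shown because ZEB1 and ZEB2 held more matches to them than any other member. Mature microRNAs were taken from RefSeq (GRCh38.p14), with the seed, bases 2 to 8, in capitals. The first pair below share a seed and the last differs from them in it.
hsa-miR-200b-3p: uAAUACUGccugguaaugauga
hsa-miR-429: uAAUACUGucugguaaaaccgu
hsa-miR-200a-3p: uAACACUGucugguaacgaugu
They lie on the plus strand at chr1:1167160-1167181, chr1:1169055-1169076 and chr1:1167916-1167937. The seed complements CAGTATT and CAGTGTT were counted in the longest annotated 3′ untranslated region (3′UTR) of each of 19101 genes (GENCODE release 29, GRCh38, transcript strand). The 3′UTR of ZEB1 held 9 matches in 2549 bases, 6 of them CAGTATT. That of ZEB2 held 9 in 5370 bases, 5 of them CAGTATT. At least 9 matches were found in 6 of the 19101 genes (0.0314%), and any match in 28.3%. Among the other members FN1 had 2 matches, SNAI2 had 1, and SNAI1, TWIST1, TWIST2, PRRX1, VIM and CDH1 had 0. The median 3′UTR had 1107 bases, so the long ZEB2 region had more room for matches. The first CAGTATT in each ZEB 3′UTR is shown with the match in capitals.
ZEB1 site: cattgttttatcttatCAGTATTa
ZEB2 site: ccgcactaccatacatCAGTATTt
The ZEB1 site lies at chr10:31527617-31527640 on the plus strand, with its match at base 369 of the 3′UTR. The ZEB2 site lies at chr2:144389052-144389075 on the minus strand, with its match at base 392. A match is a run of letters, not a measured site. The rows for the hairpins MIR200A, MIR200B and MIR429 had 0 counts in all 8 libraries. Libraries enriched for mRNA are not made to hold mature microRNAs, so these zeros give no microRNA level.

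Library totals ranged from 17217776 to 20292291 counts in genes, and 1 read was worth 0.0488 to 0.0583 CPM (counts scaled to library depth with TMM factors). The LM2 control libraries had the most genes detected (24762 and 24490, against 22296 to 23434 in the others) and the largest shares of mitochondrial reads (5.95% and 5.77%, against 3.39% to 5.68%), and the part of this in the results was not tested. TAF7 itself went from 181.9 ± 3.84 to 106.5 ± 1.57 CPM in MDA-MB-231 (mean ± SD, n = 2) and from 195.9 ± 0.874 to 145.3 ± 4.26 CPM in LM2. It fell in both lines (log2 fold changes -0.77 ± 0.07 SE, adjusted p = 4e-12, and -0.43 ± 0.07, adjusted p = 8.4e-07), and by less in LM2 (difference 0.34 ± 0.09, adjusted p = 0.00544). The difference missed the threshold when control replicate 3 of MDA-MB-231 was left out (0.333, adjusted p = 0.0513) and with library totals as the only scaling (0.229, adjusted p = 0.0538). ESR1 had 4 to 9 counts per group and PGR at most 1, so the estrogen and progesterone receptor transcripts were at the detection limit, and ERBB2 had 2045 to 2695.

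Of the 10 members, 7 passed the filter on low counts. TWIST1 and TWIST2, 2 closely related bHLH factors, had 0 counts in all 8 libraries. The limit that a count of 0 allows (3 counts) was 0.146 to 0.175 CPM, depending on the library, and it covers counting error only. CDH1 had 9 reads in all. Its counts were 2 and 3 in the MDA-MB-231 controls (replicates 2 and 3, the order used throughout), 1 and 1 with shTAF7, 0 and 2 in the LM2 controls, and 0 and 0 in LM2 with shTAF7. E-cadherin mRNA was therefore at or below the 3-count limit in every library of both lines, and no difference was detectable at this depth. Fitted without the filter, CDH1 was called in none of the 5 comparisons with edgeR (unadjusted p 0.26 to 0.509, so 0 under 0.05).

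Levels of different genes were compared only as FPKM, the deposited values scaled to gene length and library depth. In the MDA-MB-231 controls the order was VIM (187.8 ± 2.21 FPKM), FN1 (18.07 ± 0.438), SNAI1 (6.53 ± 0.156), ZEB1 (6.33 ± 0.141), SNAI2 (4.24 ± 0.0283), ZEB2 (1.855 ± 0.0636) and PRRX1 (0.325 ± 0.00707). The libraries of SNAI1 and ZEB1 overlapped there, and the other neighbours were further apart than their spread. The order was the same with shTAF7, from VIM (248.4 ± 16.3) to PRRX1 (0.31 ± 0.0283). In the LM2 controls the order was VIM (289.4 ± 12.4), FN1 (25.56 ± 2.21), ZEB1 (13.53 ± 0.354), SNAI2 (10.18 ± 0.339), SNAI1 (2.97 ± 0.269), ZEB2 (0.985 ± 0.0778) and PRRX1 (0.75 ± 0.0141). With shTAF7 in LM2, PRRX1 (0.99 ± 0.0566) stood above ZEB2 (0.575 ± 0.0495), and the order was otherwise that of the LM2 controls. SNAI1 thus stood with ZEB1 at the top of the factors in the parental line and below ZEB1 and SNAI2 in LM2. VIM made up 83.3% to 90.5% of the members' summed FPKM in every library. By mean FPKM it ranked 145th of the 15923 tested genes in MDA-MB-231 controls, 117th with shTAF7, 93rd in LM2 controls and 75th in LM2 with shTAF7. PRRX1 ranked between 10919 and 13419 in the 4 groups.

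**Figure D1:**
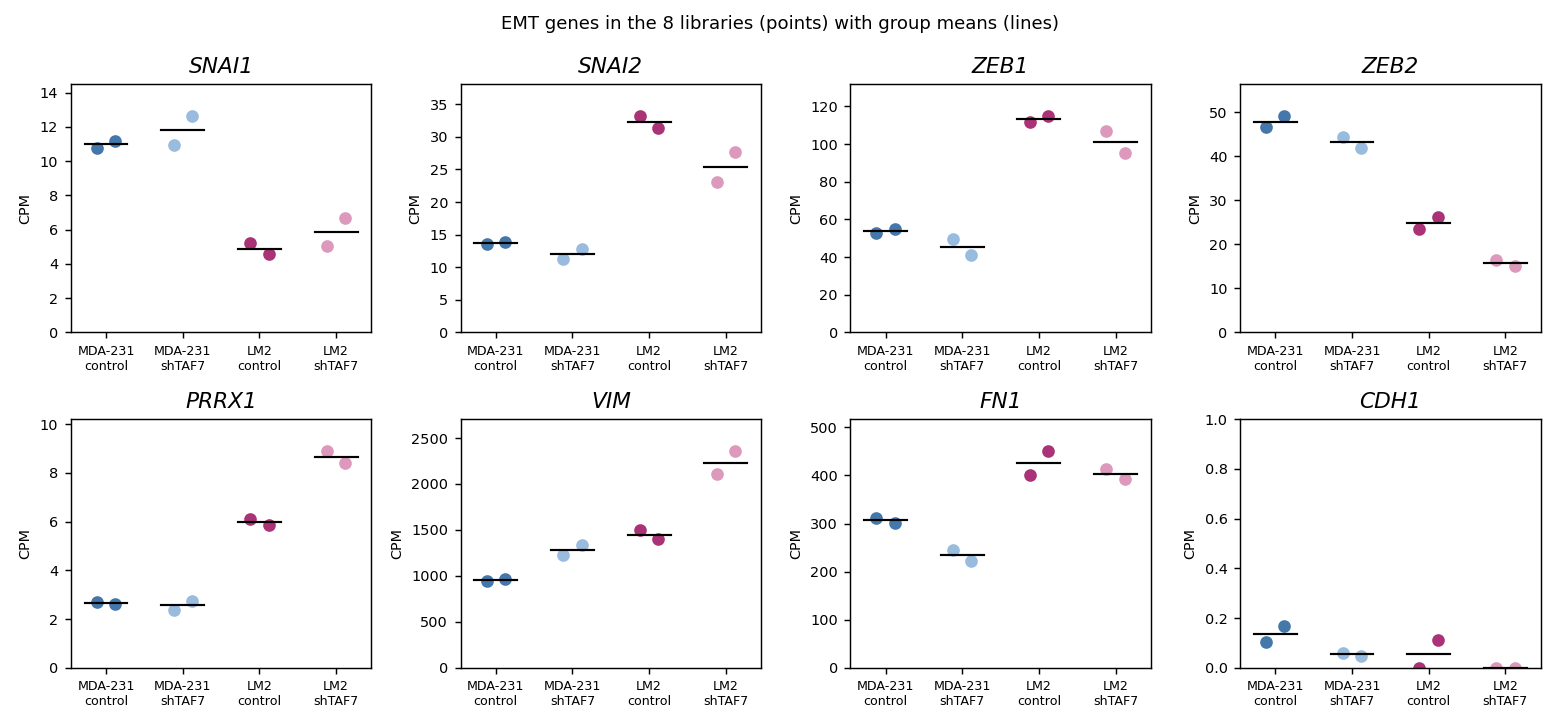
CPM of the 8 members with any read in the 8 libraries (points, replicates 2 and 3 from left to right) and the mean of each group (lines), with a linear axis from 0 for each gene; MDA-231 stands for MDA-MB-231. The 2 lines do not overlap for SNAI1, SNAI2, ZEB1, ZEB2, PRRX1, VIM and FN1, and the share of all tested genes without overlap was not computed. VIM is highest in LM2 with shTAF7 (2103 and 2354 CPM), and CDH1 stays at or below 0.168 CPM.

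Between the 2 lines the SNAI pair and the ZEB pair each split, with the paralogs going opposite ways. With the control hairpin, LM2 had more SNAI2, ZEB1 and PRRX1 and less SNAI1 and ZEB2 than MDA-MB-231, and more VIM and FN1. Of the 7 tested members, 5 were higher and 2 lower, with an adjusted p under 0.05 (edgeR's quasi-likelihood test, Benjamini-Hochberg over 15923 genes) counted as a call. The lines differed widely: 64.4% of all tested genes were called in this comparison (32.2% higher and 32.1% lower in LM2), so most genes, members or not, passed the test. The share of all tested genes without overlap between the lines was not computed. Each lack of overlap given below therefore only describes that gene.

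SNAI1 (Snail), a zinc finger repressor that acts early in EMT, had 10.76 and 11.19 CPM in the MDA-MB-231 controls, 10.96 and 12.63 with shTAF7, 5.23 and 4.57 in the LM2 controls and 5.02 and 6.71 in LM2 with shTAF7. Every LM2 library was below every MDA-MB-231 library. LM2 controls had 44.7% of the parental level, a log2 fold change of -1.16 ± 0.16 (adjusted p = 2.5e-08).
SNAI2 (Slug), its paralog, had 13.6 and 13.8 CPM in the MDA-MB-231 controls, 11.3 and 12.8 with shTAF7, 33.2 and 31.4 in the LM2 controls and 23.1 and 27.6 in LM2 with shTAF7. Here every LM2 library was above every parental library, the reverse of SNAI1. SNAI2 was 2.35-fold higher in LM2 controls (log2 1.24 ± 0.11, adjusted p = 5.1e-14).

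ZEB1, a repressor with zinc fingers and a homeodomain, had 53.0 and 54.9 CPM in the MDA-MB-231 controls, 49.4 and 40.9 with shTAF7, 111.5 and 114.9 in the LM2 controls and 107.0 and 95.4 in LM2 with shTAF7. The lines did not overlap, and ZEB1 was 2.1-fold higher in LM2 controls (log2 1.07 ± 0.08, adjusted p = 1.2e-16).
ZEB2 (SIP1), its paralog and the second miR-200 target shown above, had 46.6 and 49.2 CPM in the MDA-MB-231 controls, 44.4 and 41.9 with shTAF7, 23.5 and 26.2 in the LM2 controls and 16.5 and 15.2 in LM2 with shTAF7. The lines did not overlap for ZEB2 either, with LM2 below. LM2 controls had 51.9% of the parental level (log2 -0.95 ± 0.09, adjusted p = 5.4e-13). ZEB1 and ZEB2 differed between the lines in opposite directions, and the part of microRNAs in this was not tested.

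PRRX1, a homeobox factor of mesenchyme, had 2.704 and 2.629 CPM in the MDA-MB-231 controls, 2.391 and 2.732 with shTAF7, 6.11 and 5.85 in the LM2 controls and 8.88 and 8.40 in LM2 with shTAF7. It rested on 41 to 159 reads per library. PRRX1 was 2.24-fold higher in LM2 controls (log2 1.16 ± 0.2, adjusted p = 2.3e-06).
VIM had 948.4 and 968.7 CPM in the MDA-MB-231 controls, 1231 and 1332 with shTAF7, 1498 and 1400 in the LM2 controls and 2103 and 2354 in LM2 with shTAF7. The 4 groups did not overlap and stood in that order. The control lines differed by 1.51-fold (log2 0.6 ± 0.08, adjusted p = 3.5e-09).
FN1 had 311.3 and 302.1 CPM in the MDA-MB-231 controls, 245.2 and 222.9 with shTAF7, 401.0 and 449.9 in the LM2 controls and 414.2 and 393.4 in LM2 with shTAF7. All LM2 libraries were above all parental ones, while the 2 LM2 groups overlapped. FN1 was 1.39-fold higher in LM2 controls (log2 0.47 ± 0.07, adjusted p = 9.4e-08).

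Compared with shTAF7 in both lines, the members again split 5 higher and 2 lower in LM2, against 62.5% of all tested genes called (30.9% higher and 31.6% lower). This comparison shares no library with the one between the controls. PRRX1 was 3.35-fold higher in LM2 (log2 1.74 ± 0.19), ZEB1 2.25-fold (1.17 ± 0.08), SNAI2 2.1-fold (1.07 ± 0.11), VIM 1.74-fold (0.8 ± 0.08) and FN1 1.73-fold (0.79 ± 0.07). SNAI1 stood at 49.7% of the parental level (-1.01 ± 0.16) and ZEB2 at 36.7% (-1.45 ± 0.1). All 7 members kept their call and direction in both line comparisons under each of the 17 alternative settings tried.

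Because the paralogs went opposite ways, their ratio within a library separated the lines more than either gene did. The ratio of ZEB1 to ZEB2 FPKM was 3.44 and 3.38 in the MDA-MB-231 controls, 3.37 and 2.94 with shTAF7, 14.3 and 13.2 in the LM2 controls and 19.4 and 19.1 in LM2 with shTAF7. ZEB1 thus exceeded ZEB2 in every library, and by more in LM2. The ratio of SNAI2 to SNAI1 FPKM was 0.657 and 0.642 in the MDA-MB-231 controls, 0.534 and 0.526 with shTAF7, 3.3 and 3.58 in the LM2 controls and 2.38 and 2.14 in LM2 with shTAF7. SNAI1 was the more abundant per length in all 4 parental libraries and SNAI2 in all 4 LM2 libraries. The ratios are a description, and a ratio shows unequal change, not which gene changed.

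**Figure D2:**
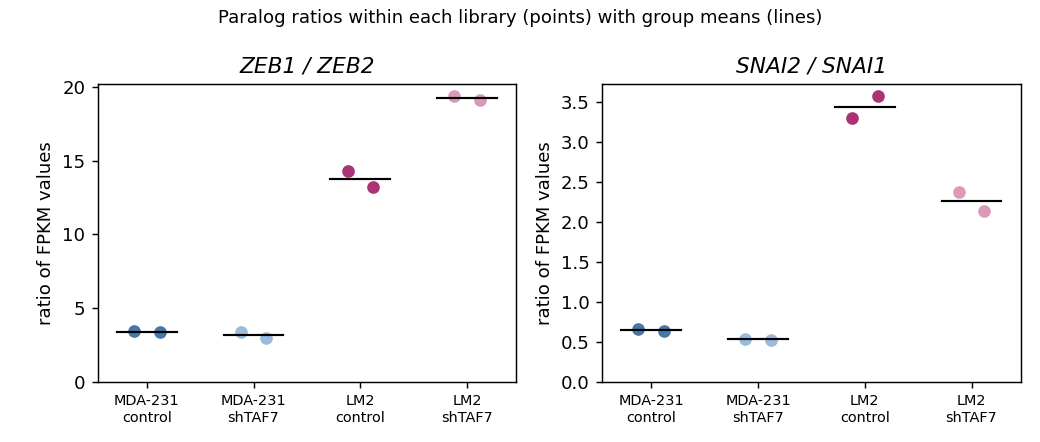
Ratio of FPKM values of ZEB1 to ZEB2 (left) and of SNAI2 to SNAI1 (right) in each library (points) with group means (lines), on linear axes from 0; MDA-231 stands for MDA-MB-231. The ZEB ratio goes from 2.94 to 3.44 in the parental line to 13.2 to 19.4 in LM2, and the SNAI ratio lies below 1 in the parental line and above 1 in LM2.

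Knockdown of TAF7 in MDA-MB-231 raised VIM and lowered FN1 and ZEB1, so the 2 mesenchymal markers moved in opposite directions. These 3 calls among 7 tested members (1 higher, 2 lower) stand beside 25.6% of all tested genes called (12.6% higher and 12.9% lower). VIM rose 1.34-fold (log2 0.42 ± 0.08, adjusted p = 5e-05), with both knockdown libraries above both controls. FN1 fell to 76.3% of control (-0.39 ± 0.07, adjusted p = 4.1e-05), again without overlap. The calls for VIM and FN1 held under all 17 alternatives. ZEB1 fell to 83.4% of control (-0.26 ± 0.08, adjusted p = 0.0156), but its 2 knockdown libraries were 49.4 and 40.9 CPM, and the call depended on single libraries. It ended without MDA-MB-231 shTAF7 replicate 3 (-0.126, adjusted p = 0.416), control replicate 2 (-0.291, adjusted p = 0.0679) or control replicate 3 (-0.242, adjusted p = 0.127), and in limma on log2 FPKM (adjusted p = 0.0998 and 0.0882). The other 4 tested factors did not pass. Their log2 fold changes and 95% intervals were -0.19 (-0.43 to 0.06) for SNAI2, -0.15 (-0.32 to 0.02) for ZEB2, 0.11 (-0.18 to 0.4) for SNAI1 and -0.05 (-0.52 to 0.42) for PRRX1. The 2 libraries of each group did not overlap for SNAI2 and ZEB2 and did overlap for SNAI1 and PRRX1. With 2 libraries per group, a lack of overlap carries little weight for an uncalled gene, here and below. Its share over all tested genes was not computed.

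In LM2, the same hairpin raised VIM and PRRX1 and lowered ZEB2 and SNAI2. These 4 calls among 7 (2 higher, 2 lower) stand beside 41.3% of all tested genes called (21.8% higher and 19.4% lower). VIM rose 1.54-fold (log2 0.62 ± 0.08, adjusted p = 6.4e-09) and ZEB2 fell to 63.7% of control (-0.65 ± 0.1, adjusted p = 9e-07), and both calls held under all 17 alternatives. SNAI2 fell to 78.5% of control (-0.35 ± 0.1, adjusted p = 0.00442). That call ended without LM2 shTAF7 replicate 2 (-0.225, adjusted p = 0.13), without LM2 control replicate 2 (-0.305, adjusted p = 0.0569) and in DESeq2 (-0.336, adjusted p = 0.0538). PRRX1 rose 1.44-fold (0.53 ± 0.17, adjusted p = 0.0101). That call ended without LM2 control replicate 3 (0.505, adjusted p = 0.0654), without LM2 shTAF7 replicate 2 (0.491, adjusted p = 0.0562), with library totals as the only scaling (0.4, adjusted p = 0.0515), in DESeq2 (0.545, adjusted p = 0.0958) and in limma with a pseudocount of 0.1 (0.358, adjusted p = 0.11).

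The other 3 tested members did not pass in LM2. ZEB1 had a log2 fold change of -0.16 (-0.31 to -0.01, adjusted p = 0.0787), and its LM2 groups did not overlap. It passed without LM2 shTAF7 replicate 2 (-0.246, adjusted p = 0.0191), with upper-quartile factors (-0.199, adjusted p = 0.0279), with library totals only (-0.29, adjusted p = 0.00212) and in limma (adjusted p = 0.0442 and 0.049). FN1 had -0.08 (-0.22 to 0.07, adjusted p = 0.409) and passed only with library totals (-0.204, adjusted p = 0.0125). That scaling moved the median of all genes in LM2 to -0.14, against -0.016 with TMM. The FPKM used in limma are scaled by library totals too, and the median there was -0.07 (pseudocount 1) and -0.13 (pseudocount 0.1). Passing in limma is thus not separate from passing with library totals. SNAI1 had 0.26 (-0.1 to 0.62, adjusted p = 0.247), and its groups overlapped.

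**Figure D3:**
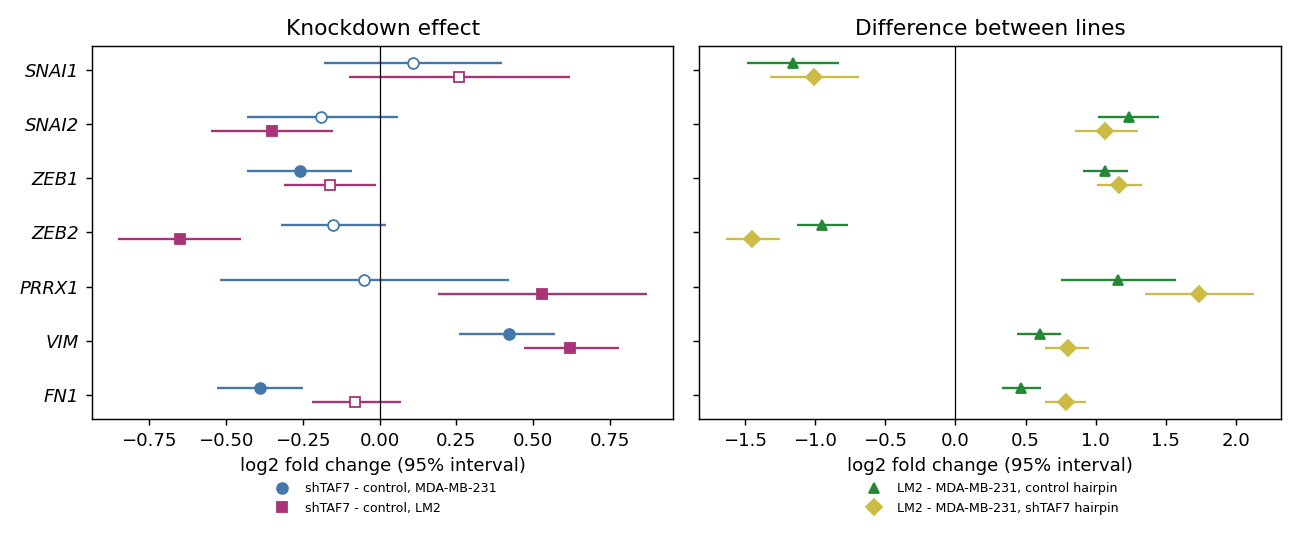
Log2 fold changes of the 7 tested members with 95% intervals (lines), for the knockdown in each cell line (left; filled symbols have an adjusted p under 0.05, open ones do not) and for LM2 against MDA-MB-231 with each hairpin (right; all called). SNAI1 and ZEB2 lie left of 0 in both line comparisons and the other 5 to the right, while the knockdown values run from -0.65 (ZEB2 in LM2) to 0.62 (VIM in LM2).

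Whether the 2 lines responded differently was tested as the difference of the knockdown effects, LM2 minus MDA-MB-231. Of the 7 members, 2 passed (1 higher, 1 lower), against 25.8% of all tested genes (13.9% higher and 11.9% lower). ZEB2 fell further in LM2, by -0.5 ± 0.13 on the log2 scale (adjusted p = 0.00335), a call lost only in limma on log2 FPKM (-0.229, adjusted p = 0.144, and -0.529, adjusted p = 0.0986). The -0.229 came with a pseudocount of 1, which shrinks log2 differences of a gene as low as ZEB2 (0.575 to 1.855 FPKM in the group means). FN1 fell in MDA-MB-231 and did not pass in LM2, a difference of 0.32 ± 0.1 (adjusted p = 0.0149). That call ended without control replicate 2 of MDA-MB-231 (0.303, adjusted p = 0.0902), MDA-MB-231 shTAF7 replicate 3 (0.254, adjusted p = 0.0796) or LM2 control replicate 2 (0.24, adjusted p = 0.126), with library totals only (0.203, adjusted p = 0.114) and in limma (adjusted p = 0.222 and 0.21). PRRX1 (0.58 ± 0.29, adjusted p = 0.138), SNAI2 (-0.16 ± 0.16, adjusted p = 0.492), ZEB1 (0.1 ± 0.11, adjusted p = 0.567) and SNAI1 (0.15 ± 0.23, adjusted p = 0.679) did not pass. The calls for SNAI2 and PRRX1 in LM2 and for ZEB1 in MDA-MB-231 were therefore not shown to differ between the lines. VIM had 0.2 ± 0.11 (adjusted p = 0.173), and it passed without LM2 shTAF7 replicate 2 (0.299, adjusted p = 0.0136) and in DESeq2 (0.226, adjusted p = 0.0482).

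The members' neighbours on the opposite strand bear on 3 of these genes, since the strand setting of the authors' counting is not given in the sources used here. ZEB1-AS1 (chr10:31206278-31320447, minus strand, GRCh38) shares 366 exonic bases with ZEB1 (chr10:31318495-31529814, plus strand), 9.55% of its own exons and 4.23% of those of ZEB1. If strand was not used in the counting, reads from the shared bases cannot be told apart. ZEB1-AS1 had 3.756 ± 0.644 CPM in the MDA-MB-231 controls, 5.452 ± 0.536 with shTAF7, 10.55 ± 0.679 in the LM2 controls and 6.486 ± 0.0634 in LM2 with shTAF7. It was 2.8-fold higher in LM2 controls (log2 1.48 ± 0.17, adjusted p = 2.4e-10) and fell with the knockdown in LM2 (-0.7 ± 0.16, adjusted p = 0.00035). The 2 knockdown effects differed by -1.23 ± 0.25 (adjusted p = 0.00016), while those on ZEB1 itself were not shown to differ. In MDA-MB-231 it had 0.53 ± 0.19 (adjusted p = 0.0351), a call that 8 of 17 alternatives ended, among them those without its control replicate 3 (0.359, adjusted p = 0.34), shTAF7 replicate 2 (0.418, adjusted p = 0.187) or shTAF7 replicate 3 (0.63, adjusted p = 0.0513).
VIM-AS1 (chr10:17214239-17229985, minus strand) shares 641 exonic bases with VIM (chr10:17228259-17237593, plus strand), 32.2% of its exons. It was 2.97-fold higher in LM2 controls (1.57 ± 0.2, adjusted p = 1.5e-09), and its knockdown effects of 0.51 ± 0.22 and -0.35 ± 0.17 did not pass (adjusted p = 0.0801 and 0.096). The LM2 effect passed with library totals only (-0.481, adjusted p = 0.0207) and in limma, which shares that scaling (adjusted p = 0.0148 and 0.0201). The MDA-MB-231 effect passed in limma with a pseudocount of 0.1 (0.468, adjusted p = 0.0336). The 2 effects on VIM-AS1 differed (-0.87 ± 0.28, adjusted p = 0.0168), a call that ended without control replicate 3 of MDA-MB-231 (-0.792, adjusted p = 0.0746), without LM2 control replicate 2 (-0.721, adjusted p = 0.0946) and in DESeq2 (-0.846, adjusted p = 0.122). VIM-AS1 had 98 to 284 reads per group, against 35557 to 82260 for VIM. ZEB2-AS1 had 2 reads in all, and the SNAI1 pseudogene SNAI1P1 had 0.

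The stretch before the most upstream RefSeq start of ZEB1 lies within the span of ZEB1-AS1, and both genes were higher in LM2 controls. It is shown with its match to the E-box CAGGTG in capitals, 57 bases before the start.
ZEB1 promoter: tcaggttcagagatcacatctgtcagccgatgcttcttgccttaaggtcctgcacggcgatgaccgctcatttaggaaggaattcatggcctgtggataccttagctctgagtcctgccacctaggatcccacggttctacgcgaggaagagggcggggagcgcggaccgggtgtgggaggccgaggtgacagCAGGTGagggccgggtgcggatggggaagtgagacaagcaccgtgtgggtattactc
This window is chr10:31318167-31318416 on the plus strand (RefSeq, GRCh38.p14). CACCTG or CAGGTG, searched on both strands, was present in 17.5% of 35116 windows of 250 bases before RefSeq starts, and in 2 of the 7 windows of ZEB1. It was in 0 of the windows of ZEB2, PRRX1, VIM, FN1 and TWIST2, and CDH1, SNAI1, SNAI2 and TWIST1 were not searched here. The match is a description of these letters and says nothing of binding.

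The rest of the EMT programme was read from 5 lists, each described by its counts beside the shares called over all tested genes: 25.6% in the MDA-MB-231 knockdown, 41.3% in the LM2 knockdown and 64.4% between the control lines. The medians over all tested genes were 0.01, -0.02 and 0.02 in that order. The lists were chosen with earlier results of these data known, and the part of that choice in their shares was not tested. Among 28 tested genes of epithelial junctions and polarity, the knockdown in MDA-MB-231 gave 4 higher and 3 lower calls (25% called, median log2 fold change 0.12). The knockdown in LM2 gave 7 higher and 3 lower (35.7%, median -0.11), and LM2 against MDA-MB-231 controls 7 higher and 14 lower (75%, median -0.29). The shares called with the knockdown were near or below those of all genes. The keratin KRT19 rose with the knockdown in both lines (0.63 ± 0.08, adjusted p = 4.06e-08, and 1.31 ± 0.08, adjusted p = 3.13e-18), and keratin reads may be shared with pseudogenes. The claudin CLDN7 rose in MDA-MB-231 (1.06 ± 0.23, adjusted p = 0.000404), where the junction scaffold CGN (cingulin) fell (-0.76 ± 0.17, adjusted p = 0.000785). The calls for F11R, PKP2 and TJP1 in MDA-MB-231 ended when MDA-MB-231 control replicate 3 was left out, which took the list's count from 7 to 4. In LM2 the epithelial clathrin adaptor subunit AP1M2 rose (0.86 ± 0.08, adjusted p = 2.88e-12), as did KRT8 (0.63 ± 0.07), and the tricellular junction receptor LSR fell (-0.81 ± 0.11). Between the lines CLDN4, another claudin, stood out with 29.5 ± 0.308 CPM in MDA-MB-231 controls and 0.915 ± 0.204 in LM2 controls (-5 ± 0.19). DSP (desmoplakin) was higher in LM2 controls (0.73 ± 0.07) and LSR lower (-1.37 ± 0.09).

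Of 18 epithelial transcription and splicing regulators, 12 were tested, and OVOL1 and ELF5 had 0 counts throughout. In LM2 the knockdown lowered 8 and raised 0 (66.7% called, against 41.3% of all genes, median -1.08). In MDA-MB-231 it lowered 1 and raised 0 (8.33%, against 25.6%, median -0.18). The 1 was the epithelial factor GRHL1 (-0.97 ± 0.32, adjusted p = 0.0212, named after its value was seen). The count was 0 without MDA-MB-231 control replicate 2, control replicate 3 or shTAF7 replicate 2 and in DESeq2 (which gave GRHL1 no adjusted p), and 2 without LM2 shTAF7 replicate 2 or 3 and in limma with a pseudocount of 0.1. DESeq2 called 5 in LM2. None of these fits called a rise, and at an unadjusted p under 0.05 edgeR had 1 in LM2 (FOXA1, singled out after its value was seen) and 0 in MDA-MB-231, and DESeq2 and limma had 0 in either line. The ETS factor EHF went from 7.58 ± 1.89 to 0.408 ± 0.0544 CPM in LM2 (-4.2 ± 0.36, adjusted p = 2.86e-13). KLF4, a Kruppel-like factor of epithelia, went from 63.9 ± 5.01 to 25.5 ± 0.417 CPM (-1.33 ± 0.08, adjusted p = 1.03e-17). ESRP1, which sets epithelial splice forms, went from 6.7 ± 0.528 to 2.6 ± 0.358 CPM (-1.36 ± 0.22, adjusted p = 2.35e-06). Between the control lines 7 were higher in LM2 and 2 lower (75%, against 64.4%, median 0.74). EHF had 274 counts in LM2 controls and 2 in MDA-MB-231 controls, a ratio of 141 (exact 95% counting interval 38.6 to 1170). ESRP1 (1.89 ± 0.24) and TFAP2A (1.72 ± 0.18) were also higher in LM2, and ESRP2 (-2.47 ± 0.28) and FOXA1 (-1.98 ± 0.22) lower.

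Among 17 other tested transcription factors tied to EMT, the knockdown gave 5 higher and 3 lower calls in MDA-MB-231 (47.1% called, against 25.6% of all genes, median 0.16). It gave 4 higher and 7 lower in LM2 (64.7%, against 41.3%, median -0.05), and the control lines 12 higher and 3 lower in LM2 (88.2%, against 64.4%, median 0.56). ETS1, the founding member of the ETS factors, fell with the knockdown in MDA-MB-231 (-0.31 ± 0.07, adjusted p = 0.000755) and in LM2 (-0.62 ± 0.07, adjusted p = 2.76e-10), and was higher in LM2 controls (1.22 ± 0.07). TCF12 fell in both as well (-0.52 ± 0.07 and -0.35 ± 0.08). FOXQ1 (0.57 ± 0.14) and SOX9 (0.43 ± 0.07) rose in MDA-MB-231. With the knockdown in LM2, FOXQ1 fell (-0.4 ± 0.13, adjusted p = 0.0101) and SOX9 did not pass (0.11 ± 0.07, adjusted p = 0.22). In LM2 SIX2 rose (1.17 ± 0.2) and the osteoblast factor RUNX2 fell (-0.83 ± 0.08). MSX2, a homeobox factor, had 0 counts in the MDA-MB-231 controls and 508 in the LM2 controls, at least 86.9-fold higher against a floor of 3 counts per library. It fell with the knockdown in LM2 (-0.64 ± 0.15, adjusted p = 0.000722). In MDA-MB-231 the list's count of 8 was 5 without control replicate 2, control replicate 3 or shTAF7 replicate 3, and in limma. The call for RUNX2 in MDA-MB-231 was lost without control replicate 3 or shTAF7 replicate 3.

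Of 31 tested corepressors and turnover factors of the SNAI and ZEB proteins, the knockdown gave 3 higher and 6 lower calls in MDA-MB-231 (29% called, against 25.6% of all genes, median -0.09). It gave 9 higher and 2 lower in LM2 (35.5%, against 41.3%, median 0.04), and the control lines 7 higher and 15 lower in LM2 (71%, against 64.4%, median -0.23). These shares were near those of all genes. AJUBA, a LIM protein that serves as a SNAI1 corepressor, fell in both lines (-0.58 ± 0.07, adjusted p = 5.92e-09, and -0.59 ± 0.07, adjusted p = 1.42e-09). RCOR1, the CoREST scaffold, fell in MDA-MB-231 (-0.66 ± 0.08, adjusted p = 7.78e-09) and had 0.01 ± 0.08 in LM2. In LM2 the histone methyltransferase SUV39H1 rose (0.9 ± 0.11), as did the Polycomb protein BMI1 (0.55 ± 0.07) and CTBP1 (0.51 ± 0.07), a corepressor that ZEB proteins bind. BMI1 was also higher in LM2 controls (0.99 ± 0.07) and SIN3A lower (-1.07 ± 0.07). The MDA-MB-231 count of 9 was 3 without control replicate 2, 4 without control replicate 3, and 5 without shTAF7 replicate 3 and in limma.

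Of 33 tested mesenchymal genes of cytoskeleton, adhesion and matrix, the knockdown gave 7 higher and 7 lower calls in MDA-MB-231 (42.4% called, against 25.6% of all genes, median -0.1). It gave 4 higher and 17 lower in LM2 (63.6%, against 41.3%, median -0.27), and the control lines 16 higher and 9 lower in LM2 (75.8%, against 64.4%, median 0.28). THBS1 (thrombospondin, a matrix protein) fell in MDA-MB-231 beside FN1, from 313 ± 4.05 to 151 ± 18.8 CPM (-1.05 ± 0.07, adjusted p = 7.69e-16). TNC (tenascin, 0.67 ± 0.08) and LOX (a collagen cross-linking enzyme, 0.55 ± 0.08) rose there with VIM. LOX went the other way in LM2 (-0.49 ± 0.07, adjusted p = 9.91e-08), and TNC had -0.07 ± 0.08 there. In LM2 the collagens COL6A1 (-1.07 ± 0.07, adjusted p = 8.74e-17) and COL5A1 (-0.94 ± 0.09) and the protease MMP2 (-1.45 ± 0.29) fell while VIM rose. VIM is not in this list, and MSN (moesin), which links actin to the membrane, was the list member with the largest rise in LM2 by the naming rule (0.34 ± 0.07). Between the control lines TAGLN (transgelin) was higher in LM2 (4.06 ± 0.18), as was COL1A1 (2.47 ± 0.15). MMP2 had 193 counts in LM2 controls against 2 (ratio 99.2, exact 95% counting interval 27.1 to 825). CDH11, a mesenchymal cadherin, went the other way, with 1 count in LM2 controls against 358 (ratio 348 in favour of MDA-MB-231, interval 62.1 to 13800). CDH2 (N-cadherin) had 5 to 11 counts per group and was not tested, so both classical cadherins of the EMT switch were near the detection limit. The MDA-MB-231 count of 14 was 9 without control replicate 2 or without shTAF7 replicate 3.

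**Figure D4:**
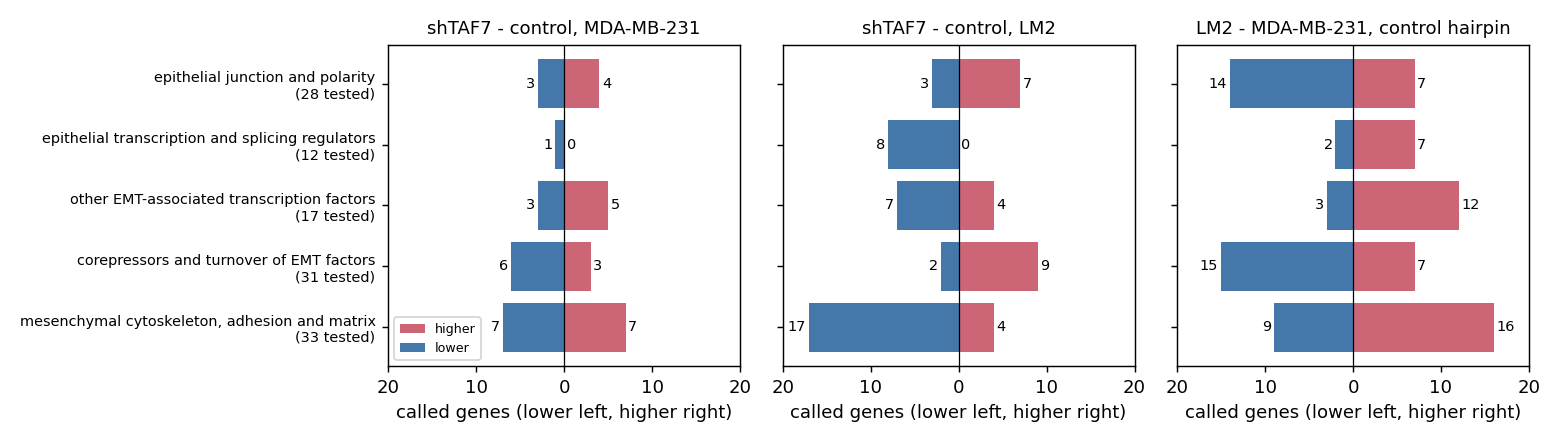
Called genes of the 5 EMT lists, lower to the left and higher to the right of 0, in the knockdown in MDA-MB-231, the knockdown in LM2 and LM2 against MDA-MB-231 with the control hairpin; the number tested stands beside each list. The longest bar is 17 lower calls among the mesenchymal genes in the LM2 knockdown, and the epithelial regulators have 8 lower and 0 higher there.

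Markers of other cell types that could carry VIM or FN1 were summed per library. Fibroblast markers (6 genes, 0 of them at 0 in all libraries) summed to 4.25 to 5.46 CPM in MDA-MB-231 controls, 4.2 to 4.83 with shTAF7, 22.6 to 28.7 in LM2 controls and 13.6 to 14.8 in LM2 with shTAF7. Most of this was COL1A1, and the defining markers DCN, LUM, PDGFRA and FAP had at most 4 counts per group. Endothelial markers (5 genes, 0 at 0 in all) summed to 4.48 to 4.89, 7.17 to 7.7, 10.5 to 10.6 and 6.92 to 7.08 CPM in that order, with at most 5 counts of CDH5 per group. PECAM1 had 147, 251, 125 and 39 counts and KDR 21, 19, 214 and 196. PECAM1 rose with the knockdown in MDA-MB-231 (0.75 ± 0.2, adjusted p = 0.0037, but 0.0903 without control replicate 3 and 0.0571 in DESeq2) and fell in LM2 (-1.7 ± 0.28, adjusted p = 2.89e-06), and KDR was higher in LM2 controls (3.37 ± 0.31, adjusted p = 1.72e-13). The part of these markers in the results was not tested. Leukocyte markers (5 genes, 1 at 0 in all) summed to at most 1.1 CPM, and PTPRC had 0, 0, 7 and 3 counts.

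The genes most like each member over the 8 libraries were named by the Pearson correlation of log2 CPM, as a description with no p. The 8 points fall into 4 groups and share depth and line, so high values are common. PRRX1 was most like MASTL (r = 0.998), POMT2 (0.997) and BEX5 (0.996), and ZEB2 like TOGARAM1 (0.997), PXDN (0.996) and FMNL2 (0.996). ZEB1 was most like PAPSS2 and ITGA6 (both 0.996) and AP3M1 (0.995). Among genes with a symbol, SNAI1 was most like KLHL32 and NOP58 (both 0.995), and SNAI2 like TTLL1 (0.996) and CPT1C (0.993). A gene without a symbol was also among the nearest 3 of each (0.993 for SNAI1 and 0.996 for SNAI2). VIM was most like CIAO3 (0.994), JPT1 and POLR1C (both 0.993), and FN1 like ZNF132 (0.996), DNAJC13 (0.995) and SETD2 (0.994). No member was among the nearest 3 of another.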

How the data were processed

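Messenger RNA of 8 libraries was compared in 4 groups of 2. STAR 2.7.10a and the build hg19 are named in the submitters' processing notes. The counting program, the annotation and the strand setting were not given in the sources used here. Counts as deposited were whole, unnormalized read numbers for each gene. The authors' FPKM values, judged from their size, were scaled to the length of the gene and the total in genes: over 5664 genes they followed the counts and library totals within 0.00029%. The files give no coordinates, so all positions are those of GRCh38 (GENCODE release 29 or RefSeq), not of hg19.

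Counts of all 61552 genes were filtered with filterByExpr (15923 left), scaled with TMM and fitted with edgeR 4.0.16 (R 4.3.3), with a mean for each group and 4 residual degrees of freedom. The 5 comparisons were tested with the quasi-likelihood test, with a call at an adjusted p (Benjamini-Hochberg) under 0.05. Replicates differed by more than sampling noise (chi-square per degree of freedom 2.25 to 6.79). Log2 fold changes are given ± SE, and CPM and FPKM as mean ± SD. The pipeline was tested on simulated data in which few genes were changed. That test does not cover data in which a large share of genes changes, as here. The members and gene lists were chosen with earlier results of these data known.

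All members, TAF7 and, per list and direction, up to 3 called genes of the largest change (group mean 5 CPM or more, groups not overlapping) could be named, with the 3 tested genes most correlated with each member that had a mean of at least 50 counts per library. Little is said of list genes that lost their call in an alternative, or of genes without a symbol. ZEB2-AS1, SNAI1P1, CDH2 and the genes of the marker lists belong to the lists and were named beside their counts. Alternatives were RLE, upper-quartile or no scaling factors, DESeq2 1.42.0, no filter, only the libraries of a comparison, a replicate block, each library left out, and limma 3.58.1 on log2 of the deposited FPKM with a pseudocount of 1 or 0.1. Since the FPKM follow library totals, limma shares its scaling with the setting of library totals only.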

Additional observations from a re-analysis of the deposited data

Results flagged for a closer look

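In the edgeR fit to all 8 libraries, ZEB2 and FN1 passed the test of the difference itself (LM2 minus MDA-MB-231, interaction of line and hairpin). ZEB2 had a difference of -0.5 on the log2 scale, with levels of 47.88 ± 1.83 and 43.17 ± 1.79 CPM in MDA-MB-231 and 24.85 ± 1.9 and 15.84 ± 0.969 CPM in LM2 (control, then shTAF7, n = 2 each). FN1 had a difference of 0.32, with 306.7 ± 6.55 and 234 ± 15.7 CPM in MDA-MB-231 and 425.4 ± 34.6 and 403.8 ± 14.7 CPM in LM2. In limma on log2 FPKM, with a pseudocount of 1 or 0.1, neither difference passed (adjusted p = 0.144 and 0.0986 for ZEB2, 0.222 and 0.21 for FN1). The pseudocount of 1 shrinks log2 differences of a gene as low in FPKM as ZEB2. That of FN1 did not pass with library totals only either (0.203, adjusted p = 0.114), and it depended on single libraries, as given above. TAF7 itself fell by less in LM2, and the part of that in these differences was not tested.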

How the results depend on the processing

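Of 588 member values recomputed over 17 settings, 552 kept direction and side of the threshold, 21 lost their call, 8 gained one and 7 changed sign. The 7 were uncalled values near 0: PRRX1 in the MDA-MB-231 knockdown (0.0244 without MDA-MB-231 shTAF7 replicate 2, and -0.156 to 0.0244 over left-out libraries), FN1 in the LM2 knockdown (0.0172 without LM2 control replicate 3, range -0.151 to 0.0172), and, for the difference of the knockdown effects, ZEB1 (-0.0123 with library totals only, -0.0293 without MDA-MB-231 shTAF7 replicate 3 in a range of -0.0293 to 0.253, -0.0315 and -0.0139 in limma with a pseudocount of 1 and 0.1) and SNAI1 (-0.0374 without LM2 shTAF7 replicate 3, range -0.0374 to 0.36). The number of members called in the LM2 knockdown was 4, and 2 in DESeq2. For the difference it was 2, 1 with library totals only, 0 in limma with either pseudocount (2 and 1 at an unadjusted p under 0.05), and 1 to 3 with a library left out. The cause was not tested. With library totals only, calls over all genes in the LM2 knockdown split 2085 higher and 4664 lower (3478 and 3092 with TMM), and those of the difference 1297 and 2674 (2221 and 1892; 1664 and 2301 with upper-quartile factors). Leaving out a library gave 2031 to 4408 calls in the MDA-MB-231 knockdown (4070 with all). Of 1645 values for the other named genes and TAF7, 1552 kept direction and side of the threshold, 86 lost their call, 7 gained one and 0 changed sign. Same-numbered libraries did not deviate together (r = -0.06 to 0.02), so no shared deviation by number was seen. The labels do not say whether the numbers pair libraries, and these correlations cannot settle it. The replicate block left the members called at 3, 4, 7, 7 and 2, with 4053 genes called in the MDA-MB-231 knockdown and 6554 in LM2. With 2 libraries per group, small effects on scarce members such as PRRX1 could be missed, and the smallest detectable effect was not computed.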

Other observations

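With shTAF7 in both lines, 12 epithelial regulators were tested, of which 4 were higher and 4 lower in LM2 (66.7% called). That share was near the 62.5% of all tested genes called there (30.9% higher and 31.6% lower). The median log2 fold change was -0.49, against 0 for all tested genes. With the control hairpin 7 of these regulators were higher and 2 lower (75%, against 64.4%). KLF4 was higher in LM2 controls (0.55 ± 0.08, adjusted p = 4.42e-08) and lower in LM2 with shTAF7 (-0.61 ± 0.09, adjusted p = 4.41e-08). ESRP1 had 1.89 ± 0.24 with the control hairpin and 0.59 ± 0.27 (adjusted p = 0.0596) with shTAF7. For the difference of the knockdown effects this list had 1 higher and 4 lower calls (median -0.95), the mesenchymal genes 5 higher and 12 lower of 33 (median -0.33), and the corepressors and turnover factors 12 higher and 1 lower of 31 (median 0.13), against a median of 0 over all genes and 25.8% called. The junction genes had 6 higher and 5 lower of 28 (median -0.07) and the other EMT factors 2 higher and 5 lower of 17 (median -0.12).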
